A study of Rattus norvegicus with 3 samples.

Results

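Forkhead and homeodomain transcription factors were examined in rat induced pluripotent stem cells of the line M13 (iPS M13), pluripotent cells obtained by reprogramming, and in an RNA mix of adult cells, mix1. Members were taken from the gene names of the array. They were the Fox genes, the sine oculis family (such as Six5 and Six6), genes whose names begin with Pax, Lhx, Isl, Alx, Otx, Pitx, Msx, Dlx, Meis, Pbx, Irx, Emx, Gbx, Prrx or Pou and then a digit, the Nkx genes and Cart1. Pou5f1 was left out of the set. Foxo1, Foxo3, Alx1 and Nkx2-8 carry older names on the array (Foxo1a, Foxo3a, Cart1 and Nkx2-9). The rule found 99 genes, on 111 probes, of 35494 genes on the array, and it used no measured value.

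The study hybridised 3 two-colour arrays, each carrying untreated iPS M13 RNA labelled with Cy3 and mix1 RNA labelled with Cy5. The iPS cells were grown on irradiated mouse embryonic fibroblasts, and mix1 combined cultured rat bone marrow cells with cultured primary ear fibroblasts. The labels name the 3 iPS M13 samples as repeats and do not say that they came from separate cultures, so the spread behind each p-value is that of these repeats and may be technical. The single mix1 RNA stands for the control, and its own spread is left out. No dye was swapped, so dye and cell type cannot be told apart. How M13 was made, whether it is 1 clone and the proportions of the cells in mix1 are not given in the sources used here.

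Forkhead proteins bind DNA through a winged-helix domain, and homeodomain proteins through a helix that lies in the major groove. LIM-homeodomain and POU factors, and some but not all Pax factors, carry a further domain beside a homeodomain. The TALE factors (Meis, Pbx, Irx) have an enlarged homeodomain and often bind DNA together with other homeodomain proteins. Many of these factors set the identity and position of cells in the embryo, and cultured fibroblasts keep some of the mesenchymal ones.

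Median spot signals were 272 to 291 in Cy3 and 228 to 254 in Cy5, and the number of arrays limits the precision. The log2 ratio of iPS M13 over mix1, positive where the signal was higher in iPS M13, had a median SD between arrays of 0.034. A gene was counted as measured if a probe of it lay well above background in the same RNA on all 3 arrays, which 20340 genes did. Below background means not well above it by the scanner software's flag. A call needed both a limma adjusted p below 0.05 (Benjamini-Hochberg over all measured genes) and at least a 2-fold difference. Of the 20340 measured genes, 19542 met the p threshold, as did 43 of the 44 measured members. The calls thus rest mostly on the 2-fold threshold, and a small p-value does not set a member apart from other genes. Both sources were checked against marker genes. Of 7 pluripotency markers on the array, 6 were higher in iPS M13 and none was lower, with Sox2 at 2.62 and Dnmt3b at 4.10, while Lin28a stood at -0.15. Pou5f1 was at least 2.48-fold higher. An "at least" value is given where 1 RNA was below background on all arrays, and sets that RNA, on each array, at the higher of its own signal and the lowest signal of any probe above background. In mix1 that lowest log2 signal was 7.35, 4.72 and 7.14 on replicates 1, 2 and 3, so on replicate 2 the own signal of the members was used. All 12 fibroblast markers and 9 of 10 macrophage and blood markers were lower in iPS M13, with medians of -7.41 and -5.42, and the remaining one, Itgam, was not measured.

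Of the 99 members, 44 were measured, a share of 44.4% against 57.3% of all genes. Among them 12 were called higher and 12 lower, which is 27.3% each, against 18.8% higher and 25.4% lower over all measured genes. The filter also keeps a gene that is bright in only 1 of the RNAs, which favours a difference without forcing one. The shares of called members are thus no support for a difference of the set. The median log2 ratio of the measured members was -0.12, against -0.02 over all measured genes. With arrays centred on their median in place of loess, the split was 18 higher and 12 lower (40.9% and 27.3% of measured members, against 36.4% and 17.8% of all measured genes), while the median of all genes moved up by 0.60 on the log2 scale. Each of the 44 measured members had 1 sign on all 3 arrays.

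**Figure D1:**
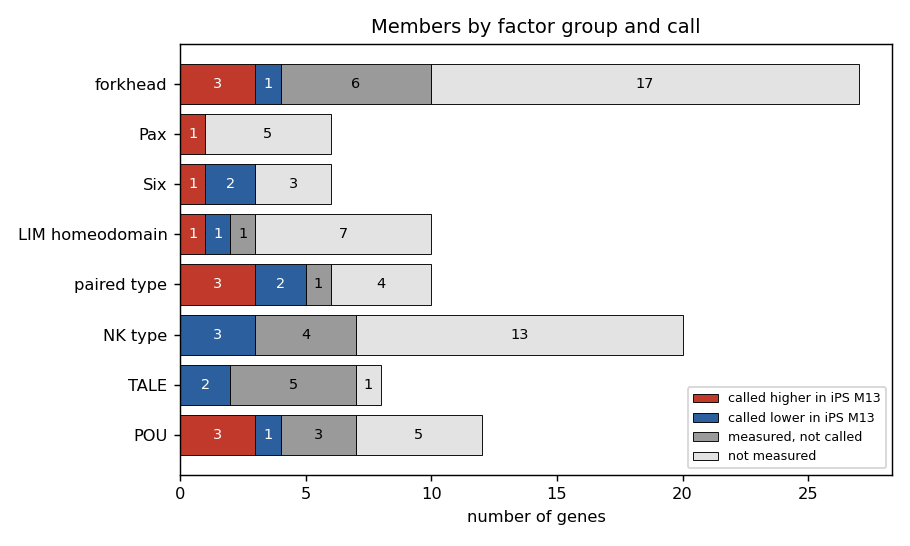
Number of members in each factor group (horizontal axis), split by call in iPS M13 against mix1 (limma, n = 3 arrays). TALE had the largest measured share, 7 of 8 genes, and forkhead the most members not measured, 17 of 27.

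A total of 40 members were above background on no array in either RNA. They included the endodermal forkhead factors Foxa1, Foxa2 and Foxa3, Foxd3, known from neural crest and pluripotent cells, the T-cell factor Foxp3, the eye-field factor Six3, the motor neuron factor Isl2 and the cardiac factor Nkx2-5. The other 15 unmeasured members passed on fewer than 3 arrays in each RNA. These 55 genes get no ratio here.

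**Figure D2:**
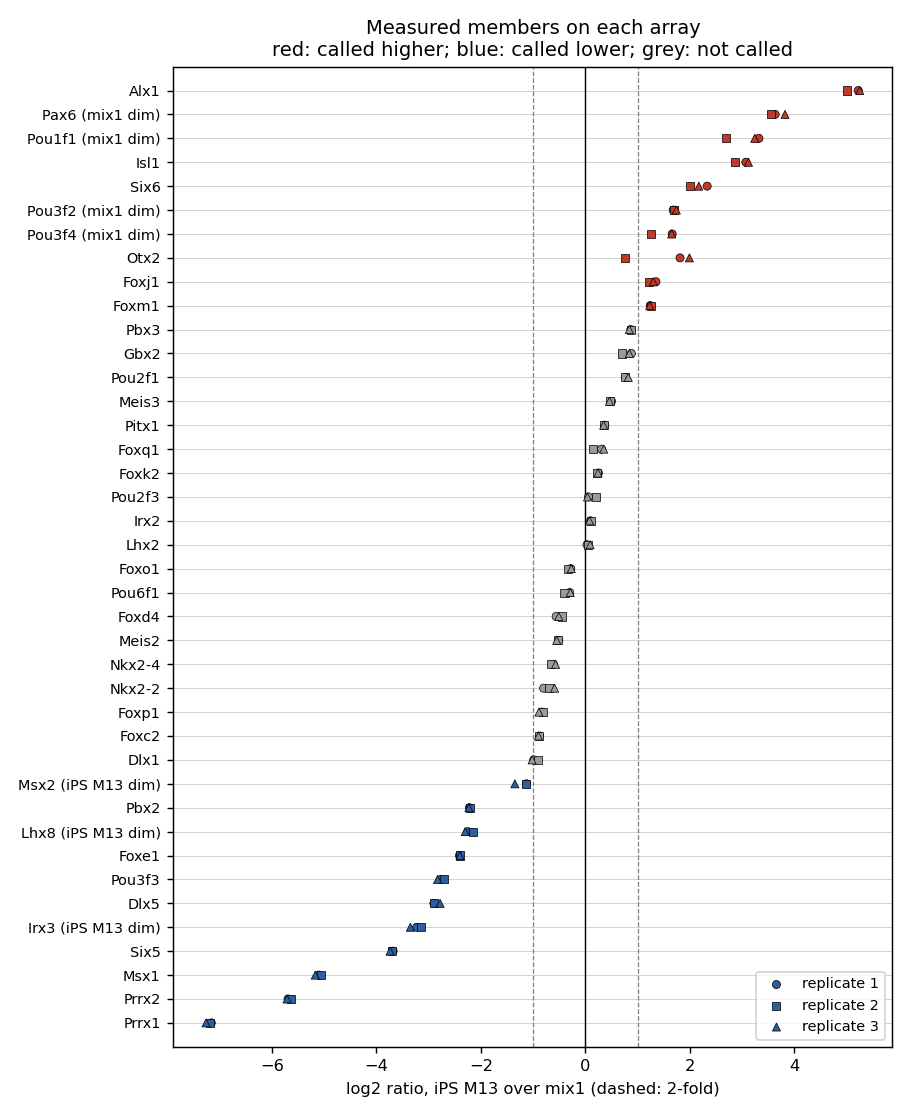
The log2 ratio of iPS M13 over mix1 (horizontal axis) of 40 of the 44 measured members on each of the 3 arrays, with dashed lines at 2-fold. The 3 symbols of a gene mostly overlap and lie farthest apart for Otx2, whose replicate 2 lay at 0.75 against 1.81 and 1.99. Replicate 2 also stood apart for Pou1f1 (2.69 against 3.32 and 3.24) and Pou3f4 (1.26 against 1.66 and 1.65). Genes marked as dim lay below background in the RNA named on all arrays.

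Of 27 forkhead members, 10 were measured, with 3 higher, 1 lower and 6 not called. Foxm1, a driver of mitotic gene expression in dividing cells, stood at 1.24, 1.25 and 1.23 (1.24 ± 0.01, SD, n = 3; 2.37-fold higher; limma adjusted p = 2.24e-06), at chr4:165639450-165639509 of build rn3. All probe positions are on that build, and no annotation of it was used to place probes in exons or untranslated regions. Foxm1 was bright in both RNAs, and the 3 arrays were nearly identical. Foxj1, required for motile cilia, had ratios of 1.35, 1.21 and 1.30 and passed the background in mix1 on 2 arrays. Foxe1, a thyroid and palate factor, was the 1 forkhead gene called lower, at -2.41, -2.40 and -2.40 (-2.40 ± 0.01, SD, n = 3; 5.29-fold lower; limma adjusted p = 7.62e-07), at chr5:62908077-62908136. Foxm1 and Foxe1 thus differed in opposite directions with signal on both sides.

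The 6 forkhead members not called ranged from -0.89 for Foxc2 to 0.27 for Foxq1. Foxo1, which insulin signalling keeps out of the nucleus, was at -0.29, and Foxp1 at -0.85. The second probe of Foxc2, a mesenchymal and lymphatic factor, gave -4.45 with iPS M13 below background on all arrays, so the probes of this gene disagree: their mean, -2.67, would be called lower. Positions of the Foxc2 probes are not used here. Foxk2 also had a second probe, at 0.62 against 0.23. Foxo3 was below background in both RNAs on all arrays.

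Genes known to be linked to FoxM1 and to the FoxO pathway were taken from lists compiled from known function, with earlier results of these data already known. Over all measured genes 18.8% were called higher and 25.4% lower, and with median centring 36.4% and 17.8%. The counts of this and the later gene lists stand beside these shares. Of 11 measured FoxM1-linked mitotic genes, 5 were higher and none lower (8 and none with arrays centred on their median), with a list median of 0.81 against -0.02 over all genes. They were led by Aurkb at 1.57, Aurka at 1.52 and Ccnb1 at 1.43, which encode mitotic kinases and a mitotic cyclin. Of 15 FoxO pathway genes, 1 was higher, the deacetylase gene Sirt1 at 1.23, and 4 were lower, with a median of -0.02, while median centring gave 5 higher and 1 lower. Among the 4 were the kinase genes Sgk1 at -4.58, Akt1 at -1.01 and Akt2 at -1.01, whose products phosphorylate FoxO proteins.

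The paired-type group held large differences in both directions. Of its 10 members, 6 were measured, with 3 higher, among them Alx1 and Otx2, Prrx1 and Prrx2 lower, and Pitx1 not called. Alx1, needed for craniofacial mesenchyme and listed on the array as Cart1, had log2 ratios of 5.22, 5.0 and 5.25 (5.16 ± 0.14, SD, n = 3; 35.7-fold higher; limma adjusted p = 2.78e-06), at chr7:41110842-41110901. It was above background in both RNAs on all arrays, at 13.55 in iPS M13 and 8.39 in mix1 (mean log2 signal), and had the 9th highest ratio of the 15766 genes so measured.

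Otx2, a forebrain factor also known from primed pluripotent cells, was the least even member. Its ratios were 1.81, 0.75 and 1.99 (1.52 ± 0.67, SD, n = 3; limma adjusted p = 0.00929), with mix1 above background on 1 array, at chr15:24639154-24639213. Replicate 2 lay below 2-fold and the other replicates above it, and without replicate 1 the mean was 1.37 and the call was lost (limma adjusted p = 0.0583). Its second probe, below background in both RNAs, read 0.30. Pitx1, a hindlimb and pituitary factor, was bright in both RNAs and stood at 0.37, 0.36 and 0.35, short of 2-fold.

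Prrx1 and Prrx2, a pair of mesenchymal factors expressed in limb and craniofacial connective tissue, were the lowest members. Prrx1 stood at -7.16, -7.18 and -7.26 (-7.20 ± 0.06, SD, n = 3; 147-fold lower; limma adjusted p = 6.22e-07), at chr13:78976156-78976215, the 68th lowest of the 15766 genes measured in both RNAs. Prrx2 stood at -5.69, -5.64 and -5.71 (-5.68 ± 0.03, SD, n = 3; 51.2-fold lower; limma adjusted p = 6.22e-07), at chr3:9832104-9832163. The iPS M13 channel still read above background for Prrx1 (mean log2 signal 9.23; mix1 16.43) and for Prrx2 (9.66; mix1 15.34). Whether mouse feeder RNA was bound by rat probes was not tested. In such bulk RNA, fewer cells of a type and less RNA per cell cannot be told apart.

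Fibroblast markers moved with Prrx1 and Prrx2. All 12 were lower, from -10.79 for Col3a1 to -2.97 for Fbn1, and their summed signal ranged from 30004 to 33934 in iPS M13 and from 2304848 to 2583919 in mix1. Thy1 and Postn were below background in iPS M13 on all arrays. The summed signal of the 10 macrophage and blood markers was 3609 to 4071 in iPS M13 and 250008 to 261962 in mix1. The part of these cells in the lower members was not tested.

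**Figure D3:**
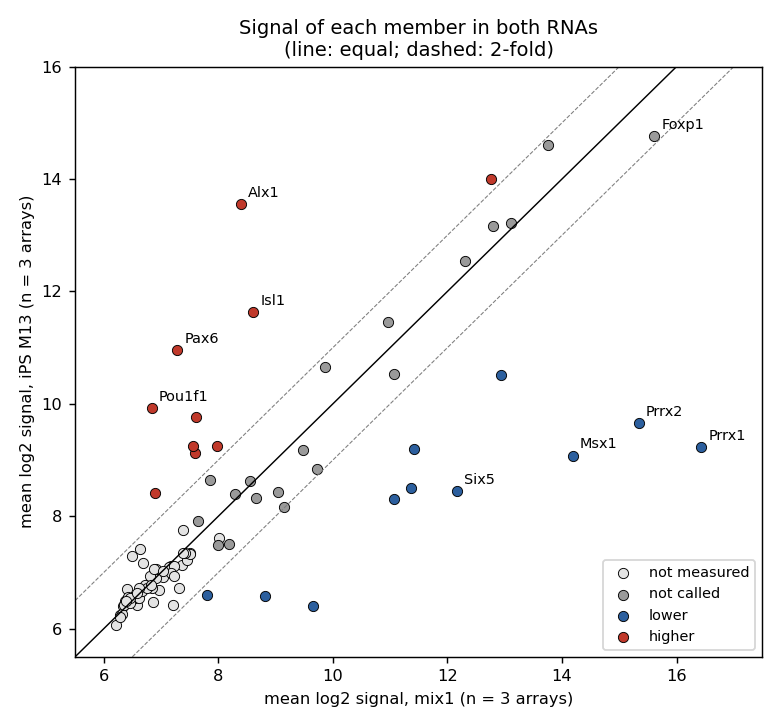
Mean normalised log2 signal of 95 of the 99 members in mix1 (horizontal axis) and iPS M13 (vertical axis), n = 3 arrays, with lines at equality and at 2-fold. Alx1 lies above the diagonal by 5.16 log2 units and Prrx1 falls below it by 7.20, while most unmeasured members crowd at the dim end. Signals of different genes come from different probes and are not compared.

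Promoter sequences, windows of 300 bases that run from upstream of the annotated start to just past it, were at hand for 68 of the 99 members in RefSeq, build GRCr8. Those of Alx1, Prrx2 and Prrx1 are shown because these are the paired-type genes with the most extreme ratios measured in both RNAs. Capitals mark CpG dinucleotides, of which they hold 13, 30 and 5. The windows lie at chr7:40063729-40064028 on the minus strand, chr3:34530081-34530380 on the plus strand and chr13:78204024-78204323 on the minus strand.
Alx1: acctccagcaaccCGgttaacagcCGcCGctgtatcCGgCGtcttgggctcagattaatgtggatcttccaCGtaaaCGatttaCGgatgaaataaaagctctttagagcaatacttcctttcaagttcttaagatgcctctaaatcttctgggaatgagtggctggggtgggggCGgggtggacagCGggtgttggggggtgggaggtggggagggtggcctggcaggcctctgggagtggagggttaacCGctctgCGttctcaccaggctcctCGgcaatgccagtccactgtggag
Prrx2: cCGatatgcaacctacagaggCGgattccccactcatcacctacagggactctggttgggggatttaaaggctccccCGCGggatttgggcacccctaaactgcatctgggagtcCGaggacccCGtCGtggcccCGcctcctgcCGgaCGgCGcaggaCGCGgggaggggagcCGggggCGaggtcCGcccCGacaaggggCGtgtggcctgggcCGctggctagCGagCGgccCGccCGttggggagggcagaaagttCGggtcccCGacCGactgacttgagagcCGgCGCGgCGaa
Prrx1: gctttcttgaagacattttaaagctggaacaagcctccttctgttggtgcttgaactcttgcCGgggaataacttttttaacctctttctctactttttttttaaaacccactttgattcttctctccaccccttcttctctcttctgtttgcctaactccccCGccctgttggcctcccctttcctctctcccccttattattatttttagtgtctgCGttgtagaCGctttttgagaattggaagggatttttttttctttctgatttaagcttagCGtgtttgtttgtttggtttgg

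Prrx1 and Prrx2 were both lower in iPS M13, and the Prrx1 window is poor and the Prrx2 window rich in CpG. A link between CpG content and the ratios was not tested. Over the 68 members the median window held 19.5 CpG and 63.7% GC, against 7 CpG and 51.7% GC over all 33469 windows. Both strands were searched for 4 motifs. The octamer ATGCAAAT and the homeodomain core TAATTA, which reads the same on both strands, were in none of the 68 windows, against 1.78% and 5.36% of all windows. The forkhead core GTAAACA was in 1, the window of Foxp1 (1.47% against 3.78%), and the TATA-box letters TATAAA in 5 (7.35% against 14.2%). All 4 motifs hold more A and T than G and C, and the windows were not matched for GC. Depletion thus cannot be read from these shares. A match is a description of letters, not a binding site.

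Pax6, a factor of eye, forebrain and pancreas, was the 1 measured gene of 6 Pax members. Its log2 ratios were 3.63, 3.55 and 3.82, with mix1 below background on all arrays, so it was at least 12.6-fold higher in iPS M13 (limma adjusted p = 5.85e-06), at chr3:91045183-91045242. All 3 arrays lay close together. Pax1, Pax3 and Pax4 were below background on all arrays, and Pax2 and Pax8 passed on too few.

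Of the 6 sine oculis members, 3 were measured, and they went both ways. Six6, a retina and pituitary factor, stood at 2.33, 2.00 and 2.17 (2.17 ± 0.17, SD, n = 3; limma adjusted p = 3.78e-05), with mix1 above background on 1 array. Six5, a broadly expressed member, stood at -3.68, -3.71 and -3.74 (-3.71 ± 0.03, SD, n = 3; 13.1-fold lower; limma adjusted p = 7.23e-07), at chr1:78533728-78533787. Its dimmer second probe read -1.35, so the size of the Six5 difference depends on the probe. Among the partners of sine oculis proteins, 6 were measured, of which 3 were lower and none higher (3 and 1 with median centring), with a median of -0.86. The corepressor gene Ski was lowest at -2.92 (SD 0.03, n = 3). The cofactor gene Dach1 stood at -1.27, with iPS M13 above background on 1 array for the probe used, and Eya2, a coactivator, was at least 2.43-fold lower.

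Of 10 LIM-homeodomain members, 3 were measured, with 1 in each class. Isl1, a factor of motor neurons and cardiac progenitors, stood at 3.07, 2.86 and 3.12 (3.02 ± 0.14, SD, n = 3; 8.10-fold higher; limma adjusted p = 9.77e-06), at chr2:47980470-47980529. Both RNAs passed the background on every array, with mean log2 signals of 11.63 in iPS M13 and 8.61 in mix1. Lhx8, a forebrain and tooth factor, was at least 3.41-fold lower, with iPS M13 below background on all arrays and ratios of -2.25, -2.15 and -2.30. Lhx2, a forebrain and hair follicle factor, stood at 0.03, 0.05 and 0.09, near equality in both RNAs. Of 8 measured partners of LIM proteins, 1 was higher, Lmo1 at 1.99 (mix1 above background on 2 arrays), and 2 were lower, Ssbp3 at -1.81 and Lmo4 at -1.16, neither of which was called with median centring. Ldb1, the common cofactor of LIM-homeodomain proteins, was at -0.94 and was not called.

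Of the 7 measured members of the NK-type group, 3 were lower and none was called higher, though Gbx2 passed 2-fold under other scalings given with it. The group had 20 members, and 13 were not measured. Msx1, a homeodomain repressor of mesenchyme, stood at -5.10, -5.06 and -5.17 (-5.11 ± 0.06, SD, n = 3; 34.5-fold lower; limma adjusted p = 7.72e-07), at chr14:78263381-78263440. Dlx5, a factor of bone and craniofacial mesenchyme, stood at -2.90, -2.90 and -2.78 (-2.86 ± 0.07, SD, n = 3; 7.26-fold lower; limma adjusted p = 2.63e-06), at chr4:31897141-31897200. Both were above background in both RNAs on all arrays. Msx2 was at least 1.68-fold lower, with iPS M13 below background on all arrays, ratios of -1.13, -1.13 and -1.35, and no call once the trend with probe GC content was taken off (-0.70).

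The 4 NK-type members not called were Dlx1 at -0.97, Nkx2-2 at -0.70, Nkx2-4 at -0.61 and Gbx2 at 0.81. Dlx1 lay just short of 2-fold and was called lower with the processed signals and the authors' value table (-1.0 in each), with an offset of 16 (-1.06) and without replicate 2 (-1.0). Gbx2, a hindbrain boundary factor also known from pluripotent cells, had ratios of 0.88, 0.70 and 0.84, with mix1 above background on 2 arrays. It fell short of 2-fold here and passed it with the arrays centred on their median (1.17), with the scanner software's processed signals (1.53) and with the GC trend taken off (1.24). Nkx2-2 and Nkx2-4 are neighbours on chromosome 3, 109.5 kb apart, and had similar ratios. With the GC trend taken off, Dlx1 and Nkx2-4, whose probes hold 73.3% and 75% GC, turned to 0.31 and 0.74. Nkx2-2 kept its sign there, so the neighbours then differed in sign.

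In the TALE group 7 of 8 members were measured, and 6 of them were above background in both RNAs on all arrays. Irx3, a limb and neural tube factor, was at least 6.06-fold lower, with ratios of -3.23, -3.14 and -3.35 and iPS M13 below background on all arrays. Pbx2, a cofactor of Hox proteins, stood at -2.22, -2.21 and -2.23 (-2.22 ± 0.01, SD, n = 3; 4.65-fold lower; limma adjusted p = 9.15e-07), at chr20:4254587-4254646. Its paralogue Pbx3 was not called, at 0.86, with 0.37 and 0.79 on its other probes. The highest TALE member, Pbx3, had ratios of 0.87, 0.87 and 0.84. Meis2 stood at -0.53, Meis3 at 0.47 and Irx2 at 0.09. Of 3 measured TALE partners and relatives, Pknox1 was higher at 1.16 (0.81 and not called with the GC trend taken off) and Pbxip1, which encodes a protein that holds Pbx proteins from DNA, was lower at -3.38.

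Of 12 POU members besides the excluded Pou5f1, 7 were measured, with 3 higher, 1 lower and 3 not called. The probes of Pou3f2 and Pou3f4 are shown because they code for the DNA-contacting helix of the homeodomain itself, where paralogues are most alike. Capitals mark the codons of that helix, at bases 19 to 36 and 8 to 25 of these 60-base probes, at chr5:37282570-37282629 on the minus strand and chrX:99288876-99288935 on the plus strand.
Pou3f2: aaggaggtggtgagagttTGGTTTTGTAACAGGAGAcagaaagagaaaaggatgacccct
Pou3f4: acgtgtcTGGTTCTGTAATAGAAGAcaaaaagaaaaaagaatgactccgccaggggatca

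Of 41012 probes, 3 coded in a forward frame for the core of this helix, and 2 of them are member probes. Aligned on the helix, the probes of Pou3f2 and Pou3f4 share 37 of 49 bases (75.5%). Their values are uncertain for that reason, since transcripts of a close paralogue may bind, which was not tested. Pou3f2, a neural factor also called Brn2, had ratios of 1.68, 1.69 and 1.74, and Pou3f4 had 1.66, 1.26 and 1.65. Both were below background in mix1 on all arrays, which makes them at least 3.26-fold and at least 2.32-fold higher. For Pou3f2 this bound equals the mean measured ratio. Pou1f1, the pituitary factor Pit1, had ratios of 3.32, 2.69 and 3.24 and was at least 6.43-fold higher (limma adjusted p = 1.15e-04).

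Pou3f3, the neural and kidney paralogue, was the 1 POU member called lower, at -2.77, -2.70 and -2.83 (-2.76 ± 0.07, SD, n = 3; 6.79-fold lower; limma adjusted p = 2.44e-06), at chr9:41877503-41877562. It was above background in both RNAs on all arrays. Members of the class Pou3 were thus called in both directions. Pou2f1, the broadly expressed Oct1, was at 0.78, with 1.40 on its second probe, so the brighter probe falls short of 2-fold and the dimmer exceeds it. Pou2f3 stood at 0.10 (limma adjusted p = 0.0728), the 1 measured member over an adjusted p of 0.05. Its second probe read -0.78, with mix1 above background on 2 arrays and iPS M13 on none, so its probes differ in sign. Pou6f1 stood at -0.33.

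Neural markers were higher alongside Pax6, Isl1 and Pou3f2, while Pou3f3 (-2.76), Lhx8 and Irx3, which are also active in neural tissue, were lower. Of 9 on the array, 7 were measured and 6 were higher, with none lower. Stmn2 stood at 2.58 with both RNAs above background on all arrays, and Neurog1 at 4.0 with mix1 above background on 1 array. Their summed signal was 88677 to 96096 in iPS M13 and 28280 to 30239 in mix1, and Neurog2 was among those not measured. Among other lineage markers, Afp was higher at 3.83 (mix1 above background on 2 arrays) while Gata6 and Dab2 were lower, 2 of 5 mesoderm markers (Mixl1 and Snai1) and 2 of 5 muscle markers (Tnnt2 and Des) were lower. With median centring Mixl1 (-0.84) and Tnnt2 (-0.75) were not called, nor was Des (-0.97) with the GC trend taken off. Of 7 endoderm markers only 3 were measured, Afp, Gata6 and Dab2. Of 5 mesoderm markers 2 were measured and of 5 muscle markers 3, and no measured marker of these 2 lists was higher. The part of such cells in the higher members was not tested.

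Groucho corepressors, which many homeodomain and forkhead repressors recruit, went both ways. Of 7 measured, 2 were higher, Tle4 at 1.47 (mix1 above background on 1 array) and Tle1 at 1.05, and 2 lower, Tle2 at -3.91 (iPS M13 on 2 arrays) and Tle5 at -1.39, while median centring gave 4 higher and 1 lower. Of 40 homeobox genes outside the members, 37 were on the array and 17 measured. Of these, 7 were higher and 5 lower (8 and 2 with median centring, 6 and 3 with the GC trend taken off). With that trend taken off, 17% of all measured genes were higher and 24.6% lower. Rhox5, an X-linked homeobox gene, led at 3.84, and Shox2, a limb mesenchyme gene, had a bound of at least 10.2-fold lower. Hopx, an atypical homeobox gene, stood at 1.87 and the mesodermal factor Meox2 at -1.42. Over these 17 genes the median was within 0.01 of 0, beside -0.12 for the measured members.

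**Figure D4:**
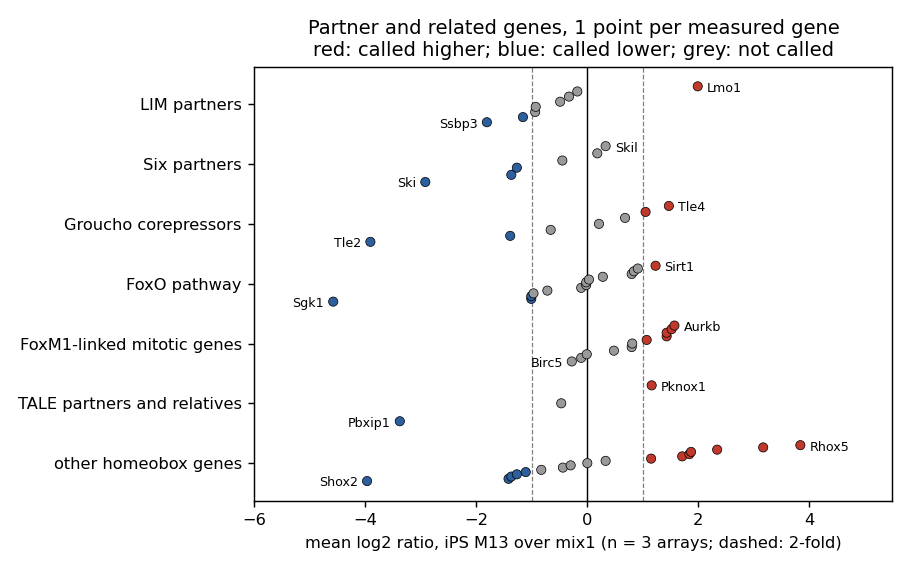
Log2 ratio (horizontal axis, iPS M13 against mix1, mean of 3 arrays) of all but 1 of the measured partner and related genes, 1 point per gene, with dashed lines at 2-fold. In the FoxM1-linked row no gene passes 2-fold on the lower side, and the other rows except the partners of sine oculis proteins have called genes on both sides under loess. With median centring the LIM partners have none on the lower side and the sine oculis partners 1 on the higher.

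The 24 called members were set against other ways of scaling the arrays. No called member changed sign. At the 2-fold threshold, 22 kept their call in every setting that gave them a value, the exceptions being Otx2 and Msx2. With both RNAs required above background, only 12 of the 24 had a value. A 4-fold threshold left 7 higher and 10 lower. The sizes were less stable. With the scanner software's processed signals the ratio was over 1.5 times larger for Foxj1 (2.16), Pax6 (6.40), Six6 (3.61), Otx2 (2.90), Pou1f1 (5.66), Pou3f2 (2.97), Pou3f4 (3.77), Lhx8 (-4.41), Msx2 (-2.90) and Irx3 (-5.23). Each of these was below background on at least 1 array in 1 RNA. An offset of 50 was added to both corrected signals, which narrows the ratios of dim spots. With an offset of 16, Pax6 stood at 4.08 and Lhx8 at -2.70. The cause of the larger ratios with the processed signals was not tested. With the arrays centred on their median, Foxm1 went to 2.06, Foxe1 to -1.55 and Pbx2 to -1.44, and 6 members not called under loess passed 2-fold: Pbx3 (1.59), Pou2f1 (1.55), Meis3 (1.32), Pitx1 (1.19), Gbx2 (1.17) and Foxk2 (1.09). Probes of members held a median of 50% GC against 43.3% over all probes, and over all genes the log2 ratio fell by 0.43 for each 10 percentage points of GC. With that trend taken off, 13 members were higher and 11 lower.

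**Figure D5:**
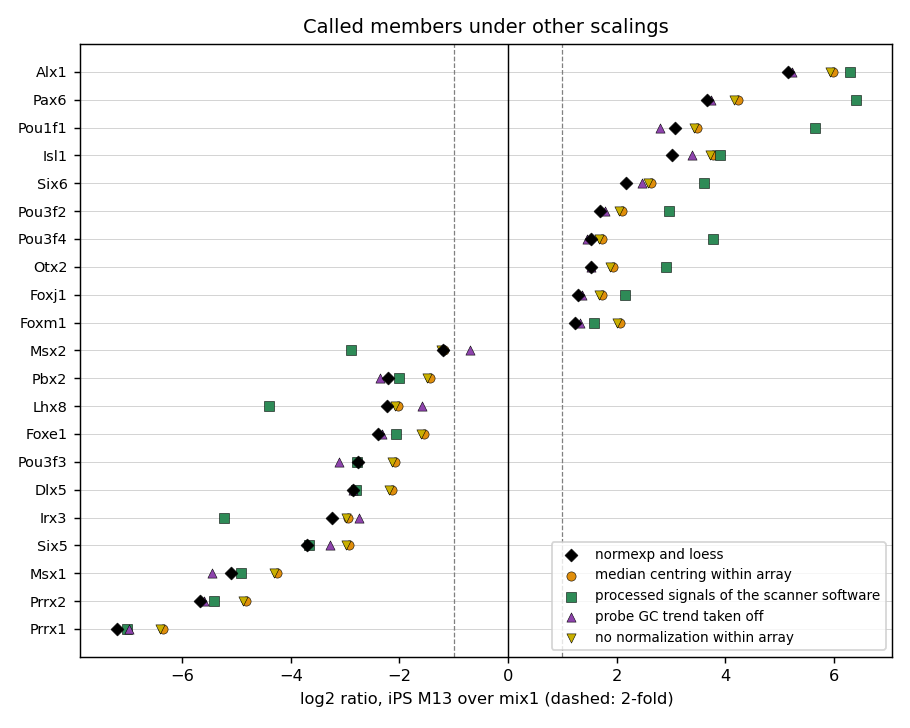
The log2 ratio of iPS M13 over mix1 (horizontal axis) of 21 of the 24 called members under 5 scalings, with dashed lines at 2-fold. Every member plotted stays on its side of 0, and the processed signals (squares) lie farthest out for dim members such as Pax6 and Irx3.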

How the data were processed

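Members and gene lists were chosen with earlier results of these data known. The authors deposited spot intensity values per channel from Agilent Feature Extraction 9.5.3.1, per the file headers, with log10 ratios of Cy5 over Cy3 from processed intensities that the software had background-corrected and dye-normalized. The authors also deposited a table of log2 ratios of unstated direction and centring. Its columns had slopes of -3.32 on the log10 ratios, so it was read as Cy3 over Cy5, and column medians were -0.0413, -0.0282 and -0.0286. The deposited flags for background, saturation and outliers, neither intensity nor ratio, were used as given.

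Normexp (offset 50) on the mean signal and median local background, then loess within array, were run in limma 3.58.1 under R 4.3.3, with control spots at weight 0. Outlier spots (205, 263 and 192) were left out, and spots of a probe were averaged. Of 41012 probes, 24175 were kept as above background in the same RNA on all 3 arrays, and the brightest stood for its gene. Ratios were tested against 0 with lmFit and eBayes, with adjusted p-values over all 20340 genes, and the script was tested on simulated data. Symbols were updated through RefSeq: accessions matched 10735 probes, current symbols 5577, synonyms 3730, gene IDs 1219 and further accessions 48, and 19703 kept the file's name. Named genes followed a written rule: values on each array for called members of at least 4-fold measured in both RNAs and for each group's extremes, bounds where 1 RNA was dim, and up to 3 genes a side of each partner list. Genes named outside it, such as some not called, were chosen after their values were seen. Some genes counted here are not reported by name. All 3 arrays lay on 1 slide with 1 scan date. Alternatives covered normalization, signals, background, filters, probe choice, GC content, fold and replicates. Tables and figures were made in Python 3.11.15 (matplotlib 3.10.9, numpy 2.4.6, pandas 2.3.3).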

Additional observations from a re-analysis of the deposited data

How the results depend on the processing

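The count of 12 higher members was 4 with both RNAs required above background on all arrays (8 lower, 28 measured). It was 7 at a 4-fold threshold (10 lower). Of the 12 higher members, 4 had mix1 above background on all arrays, and of the 12 lower, 8 had iPS M13 above it. Over all genes those settings called 16.5% and 4.59% higher and 21.9% and 13.3% lower, against 14.3% and 15.9% higher and 28.6% and 22.7% lower of measured members. Other settings gave 11 to 18 higher and 11 to 13 lower. The median of measured members, -0.12, moved to 0.39 with median centring, 0.33 without normalization, 0.18 with the processed signals and with the authors' value table, -0.02 with no filter (99 members), -0.43 with both RNAs required and 0.26 with the GC trend taken off, and ranged from -0.13 to -0.11 when each replicate was left out. The members that turned sign had not been called. With the GC trend taken off these were Foxc2 (0.11), Foxd4 (0.21), Lhx2 (-0.15), Dlx1 (0.31), Nkx2-4 (0.74), Irx2 (-0.04) and Pou6f1 (0.10). With median centring and without normalization they were Foxo1 (0.32 and 0.26), Meis2 (0.29 and 0.23) and Pou6f1 (0.09 and 0.03). The cause was not tested. No paired analysis was possible because the samples form 1 group, and slide as a block was not run because all arrays lay on 1 slide. Signal over background limits the 55 unmeasured members.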
